A study of Mus musculus with 55 samples.

Results

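The forkhead (Fox) and Sox genes encode 2 large families of DNA-binding transcription factors, and their RNA levels and chromatin marks were examined here across mouse small cell lung cancer organoids and tumours. Members were chosen by symbol: Fox followed by a class letter from a to s and a number, or Sox followed by a number, with 1 forkhead gene left out by the rule. This gave 40 genes (27 Fox, 13 Sox) of the 15479 in the count table of PRMK against PRM, and 62 genes (43 Fox, 19 Sox) of the 51912 in the count table of sgMeis2 against sgScramble. For the peak lists, the same 62 genes were placed among 21887 protein-coding genes. All 4 kinds of cells derive from gene-edited lung organoids that grew in recipient mice after injection into the left lung lobe. PRM cells carry guides against Trp53 and Rb1 and an MSCV vector that expresses Myc. PRMK cells carry in addition a guide against Kmt2c, which encodes a histone H3 lysine 4 methyltransferase, and the sgMeis2 and sgScramble cells are PRMK cells with a further guide against Meis2 or a scrambled guide. Liver PRM samples carry the same plasmids as lung PRM and were taken from the liver of the recipient mice. RNA was compared over 3 libraries a group and peaks over 2, using 12 RNA libraries and 26 peak libraries of the 55 samples of the series. Whether replicates stem from different animals is not stated, so a p-value measures only the spread between these libraries.

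Several labels limit what the groups stand for. The PRMK RNA samples list no Kmt2c guide among their plasmids, although their titles say PRMK. The PRM RNA columns are numbered 4, 5 and 6 while the titles number these samples 3 to 5, and the column numbers are used here. Only the PRM RNA samples name a stranded library kit, so library preparation and genotype cannot be told apart. In the PRMK samples for H3K4me2, H3K4me3 and KMT2C, replicate 1 lists the Meis2 guide and replicate 2 the scrambled guide. ATAC organoids were harvested after 3 days of culture.

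Forkhead factors bind DNA through a winged-helix domain, and Sox factors bend DNA through a high-mobility-group box in the minor groove. Foxa proteins and Sox2 act early in the lung and airway epithelium, Foxj1 drives the motile cilia programme, FoxO proteins are held in the cytoplasm by phosphorylation through AKT, and FoxM1 drives genes of mitosis. In small cell lung cancer, a neuroendocrine tumour, SOX2 is a known amplified gene and SOXB1 proteins are known as targets of patient autoantibodies. Histone H3 lysine 4 is monomethylated (H3K4me1) mainly at enhancers and trimethylated (H3K4me3) mainly at active promoters, with dimethylation (H3K4me2) at both.

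Of the 62 members, 40 had a start site in the RefSeq promoter table (build GRCm38.p6), with 48 start sites in all. Member promoters, taken as 250 bases before to 50 bases after the start, had a median GC content of 62.8% (range 36.7% to 79.3%) against 52.7% over all 32851 promoters. They held a median of 21 CpG dinucleotides (2 to 59) against 7 over all promoters. A search of both strands found TGACAG, the core bound by Meis and Tgif factors, in 11 of the 48 member promoters (22.9%) and in 19.2% of all promoters. The forkhead word TGTTTAC stood in 2 (4.17%; Foxa1 and Sox12) against 3.65% of all, and the Sox word ACAATGG in 2 (4.17%; Foxp1 and Sox5) against 3.66% of all. These shares lay near those of all promoters. The 250 bases before 6 start sites are shown because the results on histone marks below return to these genes. They are read 5′ to 3′ on the gene's strand, with a word of the 3 searched, on either strand, in capitals.
Sox2, chr3:34649745-34649994, + strand: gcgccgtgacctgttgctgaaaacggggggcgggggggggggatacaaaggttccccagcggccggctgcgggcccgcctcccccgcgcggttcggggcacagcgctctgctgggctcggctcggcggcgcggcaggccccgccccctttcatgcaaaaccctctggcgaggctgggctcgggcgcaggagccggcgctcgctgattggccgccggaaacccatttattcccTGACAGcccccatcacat
Sox21, chr14:118237031-118237280, - strand: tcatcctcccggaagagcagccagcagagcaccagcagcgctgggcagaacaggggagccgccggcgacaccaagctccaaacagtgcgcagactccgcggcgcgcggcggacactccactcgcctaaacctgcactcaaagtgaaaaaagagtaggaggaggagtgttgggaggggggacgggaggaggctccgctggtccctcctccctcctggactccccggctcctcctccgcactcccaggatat
Sox6 start site 2, chr7:116031048-116031297, - strand: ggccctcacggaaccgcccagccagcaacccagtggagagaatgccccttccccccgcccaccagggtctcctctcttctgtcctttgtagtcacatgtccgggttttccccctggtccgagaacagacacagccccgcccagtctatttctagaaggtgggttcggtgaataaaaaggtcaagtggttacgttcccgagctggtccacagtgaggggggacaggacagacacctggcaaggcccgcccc
Sox5, chr6:143947107-143947356, - strand: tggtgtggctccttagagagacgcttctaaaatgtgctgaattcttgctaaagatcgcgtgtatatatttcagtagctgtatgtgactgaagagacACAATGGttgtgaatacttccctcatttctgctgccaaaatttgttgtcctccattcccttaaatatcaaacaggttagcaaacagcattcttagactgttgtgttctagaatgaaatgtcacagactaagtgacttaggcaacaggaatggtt
Foxp1 start site 2, chr6:99266516-99266765, - strand: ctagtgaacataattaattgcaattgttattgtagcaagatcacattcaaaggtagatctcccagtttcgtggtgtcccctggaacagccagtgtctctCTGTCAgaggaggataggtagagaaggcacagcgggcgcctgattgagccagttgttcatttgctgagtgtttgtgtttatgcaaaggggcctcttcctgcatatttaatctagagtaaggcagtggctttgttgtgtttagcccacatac
Foxp1 start site 3, chr6:99028299-99028548, - strand: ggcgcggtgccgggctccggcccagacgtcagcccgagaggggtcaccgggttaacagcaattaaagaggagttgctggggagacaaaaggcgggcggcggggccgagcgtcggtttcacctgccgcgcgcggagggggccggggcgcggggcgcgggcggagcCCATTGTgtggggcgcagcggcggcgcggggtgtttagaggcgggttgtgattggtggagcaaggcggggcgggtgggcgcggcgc
The Sox2 window carries TGACAG 18 bases before the start and 27 CpG. The Sox5 window, which lies before a start site inside the gene, holds 3 CpG and carries ACAATGG 154 bases before that start. The 2 Foxp1 windows differ in composition: start site 2 has 3 CpG and 45.2% GC with the Meis and Tgif core 151 bases upstream, and start site 3 has 34 CpG and 74.0% GC with the Sox word 86 bases upstream. The Sox21 and Sox6 windows hold none of the 3 words, which says only that these letters are not in these windows.

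Library totals ran from 12013253 to 24389041 counts. PRM library 6 stood apart from the other libraries: Nkx2-1, a lung and small cell lineage factor, was at 0 CPM, the count scaled to library size, there against 654 to 666 in PRM libraries 4 and 5 (278 to 423 CPM in PRMK). The airway and alveolar epithelium markers, a list that holds Nkx2-1, went the other way in sum. They summed to 2816 CPM in PRM library 6 and to 829.4 and 708.7 CPM in PRM libraries 4 and 5 (945.3 to 3139 CPM in PRMK). The neuroendocrine granule gene Chga was at 3.56 CPM in PRM library 6 and at 634 to 1333 CPM in the other 5, and the synaptic vesicle gene Syp at 6.76 CPM and at 121.5 to 162.9 CPM. Other libraries differed too. Immune markers summed to 463 to 679 CPM in PRMK and to 2.07 to 485 CPM in PRM, with 6 of 10 markers listed and the macrophage genes Lyz2 and Adgre1 leading. Medians over chromosome 5 and chromosome 14 were lower by 0.89 and 0.73 on the log2 scale in PRM library 4, and the median over chromosome 13 was higher by 0.62 in PRM library 5. The targeted genes gave a mixed picture. Kmt2c stood at 85.1, 84.4 and 105 CPM in PRMK against 113, 187 and 67.5 CPM in PRM, and Myc at 272, 312 and 205 CPM against 1139, 2304 and 2057 CPM. Of the genes targeted in both groups, Trp53 ran from 18.5 to 23.9 CPM in PRMK and from 19.7 to 26.2 CPM in PRM, and Rb1 was at 39.9, 44.0 and 17.8 CPM in PRMK and at 22.2, 6.95 and 3.38 CPM in PRM. A guide need not lower the RNA of its target, so these levels check the labels only in part. In bulk samples, fewer cells of a type and less RNA per cell cannot be told apart. The part of these differences in the results below was not tested, except where a value without a library is given.

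Per length, the most abundant members in the PRMK and PRM libraries were Sox1 (mean 381 TPM, a level per transcript length and library, over the 6 libraries), Foxa1 (339 TPM), Sox2 (208 TPM), Sox12 (182 TPM), Foxk2 (175 TPM), Sox11 (170 TPM), Sox21 (165 TPM), Sox4 (148 TPM), Foxp4 (95.8 TPM) and Foxm1 (72.7 TPM). The list thus joins the neural Sox genes of groups B and C, the lung pioneer factor Foxa1 and broadly expressed forkheads. Neighbours in this order did not differ beyond their spread over libraries: Sox1 ran from 2.57 to 658 TPM, Foxa1 from 71.4 to 646 TPM and Sox2 from 79.4 to 343 TPM. In the sgMeis2 and sgScramble libraries Sox1 led again (147 TPM), followed by Sox11 (134 TPM), Foxk2 (118 TPM), Sox21 (84.8 TPM), Sox2 (77.6 TPM), Sox12 (74.1 TPM), Foxa1 (67.6 TPM), Sox4 (56.4 TPM), Foxm1 (53.3 TPM) and Foxk1 (32.5 TPM). At least 1 CPM in every library was reached by 22 of 40 members (15 Fox, 7 Sox) in the first table and by 28 of 62 (19 Fox, 9 Sox) in the second. No count in any library of the second table was found for 12 members: Foxa3, Foxb1, Foxb2, Foxd4, Foxe1, Foxe3, Foxi1, Foxi2, Foxl2, Foxr1, Sox14 and Sox30. The tables were normalized separately, so levels are not compared between them.

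**Figure D1:**
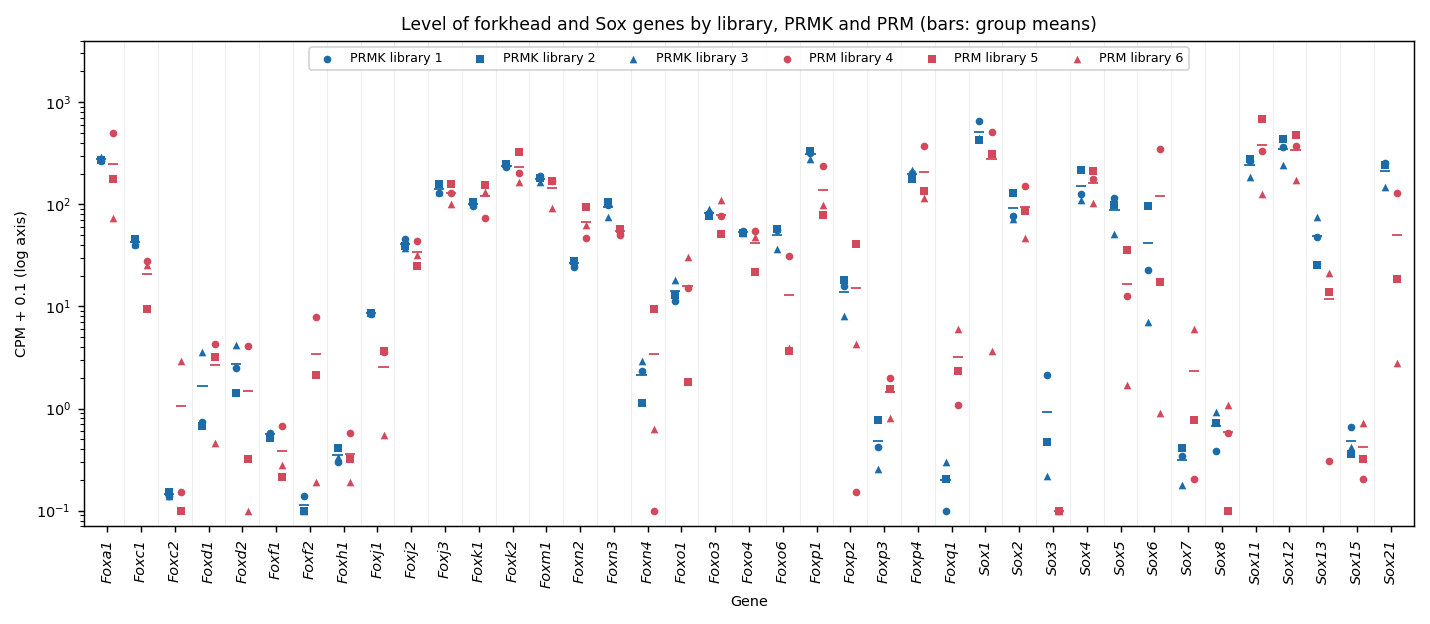
Level of the members in the PRMK and PRM RNA libraries, in CPM plus 0.1 on a log axis, with 1 symbol per library and a bar at the group mean. The red PRM symbols are spread more widely than the blue PRMK symbols for most genes, as for Sox1, where PRM library 6 lies at 3.56 CPM and the other libraries between 310.5 and 654.4 CPM.

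The comparison of PRMK with PRM asks which members differ where Kmt2c was targeted. Of the 40 members, 33 passed the filter on low counts; the 7 that did not were Foxc2, Foxf1, Foxf2, Foxh1, Sox3, Sox7 and Sox15. By edgeR's quasi-likelihood test with Benjamini-Hochberg adjustment over all 13914 genes, 0 genes and 0 members passed an adjusted p of 0.05 (0% of all genes), and the lowest adjusted p was 0.158 over all genes and 0.19 among members. At an unadjusted p under 0.05, 3 members were higher in PRMK (7.03% of all genes were) and 2 were lower (10.1% of all genes were). DESeq2 called 1 member higher (3.97% of its 14869 genes) and 3 lower (4.6%). The groups did not overlap for 8 members that were higher in PRMK (24.2% of those tested, against 15.1% of all genes) and for 3 that were lower (9.09%, against 14.6% of all genes). The median log2 fold change was 0.07 over the tested members and -0.02 over all tested genes, with 19 of 33 members above 0 (57.6%, against 48.6% of all genes). None of these shares is a test of the families.

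The spread among PRM libraries was wide for these genes. The SD of log2 CPM was larger in PRM than in PRMK for 32 of 33 members, as it was for 88.8% of all genes, and its median over members was 0.92 in PRM and 0.345 in PRMK. Over all tested genes these medians were 0.598 and 0.201. A range of at least 3 on the log2 scale, which is the distance between the highest and lowest library, was seen in 9 members in PRM (27.3%, against 14.3% of all genes) and in 1 in PRMK.

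Sox genes of group B act in neural and airway progenitors. Sox1 stood at 654.4, 422.5 and 444 CPM in PRMK and at 509.9, 310.5 and 3.558 CPM in PRM libraries 4, 5 and 6. Only PRM library 6 was far below the rest. PRM library 4 lay inside the PRMK range and PRM library 5 below it. The log2 fold change of 0.88 (SE 1.29, edgeR adjusted p = 0.744) was smaller than its error. It was 1.67 without PRM library 4, a refit that keeps the low library 6. The value without PRM library 6 is not given here. Sox2, the airway and stem cell factor, was at 76.21, 130.4 and 72.23 CPM in PRMK and at 149.9, 85.98 and 46.7 CPM in PRM, with the groups interleaved. Sox21, a group B factor that represses many Sox2 targets, was at 252.1, 240.8 and 146.7 CPM in PRMK and at 129.1, 18.48 and 2.669 CPM in PRM. All 3 PRMK libraries lay above all 3 PRM libraries (log2 fold change 2.09, SE 1.21, edgeR adjusted p = 0.414). The log2 fold change was 4.29 without PRM library 4 (edgeR adjusted p = 0.0634) and 1.54 without PRM library 6. Sox21 lies on chromosome 14, whose median was lower in PRM library 4, and the part of that shift was not tested. Sox3, an X-linked group B gene, had 50, 7 and 3 counts in PRMK and 0 in each PRM library. With the PRM sum set to a floor of 3 counts, this is at least 13.9-fold higher in PRMK. That bound rests on library 1: without it, a setting added after the counts were seen, the 10 remaining counts give at least 3.62-fold. The gene did not pass the filter, and DESeq2 gave an adjusted p of 0.0613.

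Sox genes of group C, which mark immature neurons and progenitors, overlapped between the groups. Sox11 was at 264.1, 276 and 185.5 CPM in PRMK and at 330, 689.5 and 125.2 CPM in PRM (log2 fold change -0.66, edgeR). PRM held both the highest and the lowest library. Sox4 ran from 110.2 to 217.7 CPM in PRMK and from 102.8 to 210 CPM in PRM. Sox12 ran from 241.5 to 433.4 CPM in PRMK and from 172.5 to 478.7 CPM in PRM.

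Group D factors, which lack an activation domain of their own and often work beside other Sox proteins, gave wider differences. Sox5 was at 116.4, 97.44 and 51.26 CPM in PRMK and at 12.59, 35.51 and 1.601 CPM in PRM. The groups did not overlap (log2 fold change 2.41, SE 0.99, unadjusted p = 0.0497, adjusted p = 0.291, edgeR), and the log2 fold change was 3.63 without PRM library 5 and 1.88 without PRM library 6. Sox13 was at 47.45, 25.3 and 75.4 CPM in PRMK and at 0.209, 13.67 and 20.99 CPM in PRM, again without overlap (log2 fold change 2.09, SE 1.27, edgeR adjusted p = 0.434). Its log2 fold change was 1.46 without PRM library 4 and 2.83 without PRM library 6. Sox6, the close relative of Sox5, was at 22.46, 96.24 and 6.966 CPM in PRMK and at 345.2, 17.31 and 0.801 CPM in PRM. PRM library 4 was the highest of the 6 and PRM library 6 the lowest, and the log2 fold change of -1.53 (SE 1.84, edgeR adjusted p = 0.688) became 2.17 without PRM library 4. Of the remaining groups, Sox8 stayed under 1 CPM in every library, Sox15 likewise, and the endothelial factor Sox7 reached 5.96 CPM only in PRM library 6, with 0.672 CPM or less elsewhere. Summed endothelial markers were 26.2 to 207 CPM in PRMK and 4.76 to 41.6 CPM in PRM, and in PRM library 6 the endothelial marker Egfl7 was at 13.7 CPM while Pecam1 was at 0.089 CPM.

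Among forkheads, class N held both the lowest unadjusted p and opposite directions. Foxn2, a broadly expressed factor, was at 24.03, 27.91 and 26.95 CPM in PRMK and at 46.69, 93.43 and 62.09 CPM in PRM. Every PRM library was above every PRMK library (log2 fold change -1.36, SE 0.30, unadjusted p = 0.0038, adjusted p = 0.19, edgeR; DESeq2 adjusted p = 0.00456). Foxn3, a repressor known as a cell cycle checkpoint factor, was at 99.4, 106.1 and 74.81 CPM in PRMK and at 50.4, 57.36 and 56.48 CPM in PRM. Here every PRMK library was the higher (log2 fold change 0.77, SE 0.21, edgeR adjusted p = 0.208; DESeq2 adjusted p = 0.0236). Foxn4, a retinal and spinal cord factor, stayed at 2.85 CPM or less except in PRM library 5 (9.41 CPM).

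Class P factors are repressors of lung, neural and immune development. Foxp1 was at 316.7, 331.3 and 280 CPM in PRMK and at 236.7, 78.86 and 99.27 CPM in PRM, with no overlap (log2 fold change 1.16, SE 0.44, unadjusted p = 0.036, adjusted p = 0.265, edgeR). Foxp2, its partner in distal lung epithelium, was at 15.71, 18 and 7.995 CPM in PRMK and at 0.052, 40.72 and 4.181 CPM in PRM (log2 fold change -0.11, SE 1.58, and 2.75 without PRM library 5). Foxp4 ran from 177.4 to 215 CPM in PRMK and from 114.7 to 372.2 CPM in PRM. Foxp3, the factor of regulatory T cells, was low throughout: 0.321, 0.678 and 0.158 CPM in PRMK and 1.88, 1.456 and 0.712 CPM in PRM. The groups did not overlap (log2 fold change -1.81, SE 0.76, edgeR adjusted p = 0.296, and -2.46 without PRMK library 2). Beside it, the 4 tested immune markers had a median log2 fold change of 1.46 with 0 passing edgeR, and the T cell marker Cd4 ran from 0.089 to 0.783 CPM over all 6 libraries.

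In the other forkhead classes, differences without overlap were seen in Foxc1, Foxj1, Foxo6 and Foxq1. Foxc1, a mesenchymal and eye development factor, was at 40.06, 45.9 and 40.96 CPM in PRMK and at 27.68, 9.354 and 25.53 CPM in PRM (log2 fold change 1.02, SE 0.43, edgeR adjusted p = 0.299). Foxj1 was at 8.357, 8.45 and 8.589 CPM in PRMK and at 3.447, 3.529 and 0.445 CPM in PRM (log2 fold change 1.76, SE 0.77, edgeR adjusted p = 0.308). The PRMK libraries were almost level with one another for this gene. Foxo6, a neuronal FoxO gene, was at 55.4, 57.22 and 36.22 CPM in PRMK and at 31.34, 3.529 and 3.825 CPM in PRM (log2 fold change 1.94, SE 0.91, edgeR adjusted p = 0.338). Foxq1, an epithelial factor, was at 0, 0.104 and 0.198 CPM in PRMK and at 0.992, 2.24 and 5.96 CPM in PRM (log2 fold change -4.83, SE 1.26, edgeR adjusted p = 0.207; DESeq2 adjusted p = 0.00261). Its log2 fold change was -3.92 without PRM library 6 and -5.84 without PRMK library 3. Foxf2, which lies close to Foxq1 on chromosome 13, had 1, 0 and 0 counts in PRMK and 150, 36 and 1 counts in PRM and did not pass the filter (DESeq2 adjusted p = 0.00366). The median over that chromosome was higher in PRM library 5, and the part of that shift was not tested. The lung factor Foxa1 was at 268.4, 273 and 293.4 CPM in PRMK and at 494.8, 175.9 and 73.65 CPM in PRM. Its 3 PRMK libraries were close together and lay inside the PRM range (log2 fold change 0.17, SE 0.64, edgeR, and 1.12 without PRM library 4).

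The broadly expressed forkheads showed less contrast. Foxk2 ran from 229.6 to 247 CPM in PRMK and from 167.1 to 323 CPM in PRM, and Foxk1 from 95.7 to 105.8 CPM and from 73.75 to 155.8 CPM. Foxm1 ran from 164.7 to 190.2 CPM in PRMK and from 92.96 to 170.8 CPM in PRM. The FoxO genes overlapped as well: Foxo3 was at 76.99 to 89.65 CPM in PRMK and 51.53 to 108.9 CPM in PRM, Foxo4 at 51.69 to 54.68 CPM and 21.84 to 55.1 CPM, and Foxo1 at 11.13 to 18.01 CPM and 1.736 to 30.15 CPM. Foxj2, Foxj3, Foxd1 and Foxd2 overlapped between the groups, with Foxd1 and Foxd2 at under 5 CPM everywhere.

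Without PRM library 4, edgeR called 796 genes and 3 members: Foxn2 (log2 fold change -1.61, adjusted p = 0.0426), Foxo6 (3.70, adjusted p = 0.0385) and Foxp1 (1.74, adjusted p = 0.0385). For scale, the fit on all 6 libraries tested 13914 genes and 33 members. The 3 calls are therefore no test of the families. No member was called when any of the other 5 libraries was left out, PRM library 6 among them. The calls by edgeR therefore turned on 1 library, while DESeq2 on all 6 called Foxn3 higher and Foxf2, Foxn2 and Foxq1 lower.

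**Figure D2:**
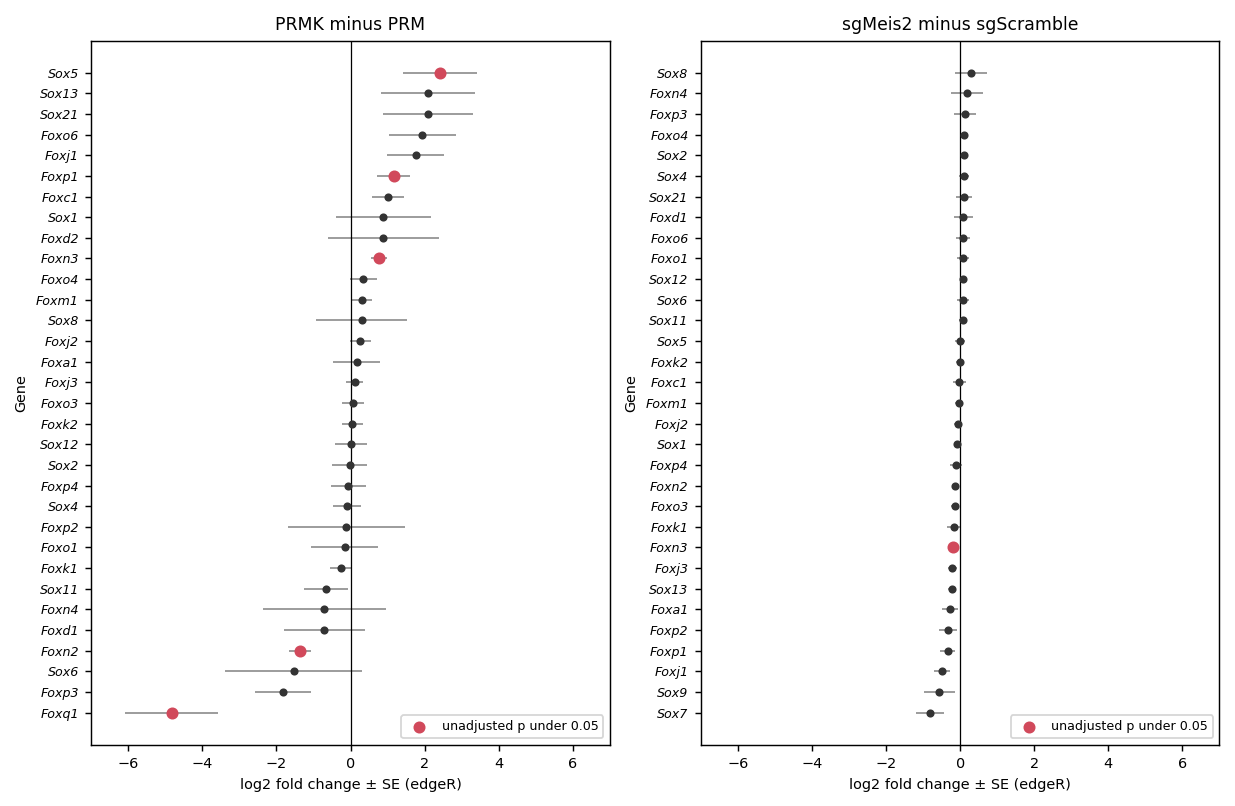
Log2 fold changes by edgeR of tested members in both RNA comparisons, with bars of 1 standard error (SE) and larger red points for an unadjusted p under 0.05. The SE was derived from the F statistic of the test. The fold changes for PRMK against PRM run from -4.83 (Foxq1) to 2.41 (Sox5), and those for sgMeis2 against sgScramble stay within 1 of 0.

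Lists of genes that work with these factors were read beside them. Of 17 tested FOXO target genes, 5 were above 0 and 12 below, with a median log2 fold change of -0.35 against -0.02 over all genes, and 0 passed edgeR. The lowest unadjusted p belonged to Sod2, the mitochondrial superoxide dismutase, at 126.9, 126.2 and 125.3 CPM in PRMK and 144.3, 229.1 and 198.5 CPM in PRM (log2 fold change -0.60, unadjusted p = 0.0322 by edgeR). Of 15 regulators of FOXO in the PI3K and AKT pathway, 5 were above 0 and 10 below (median -0.35), and 0 passed. Sgk1, a kinase that phosphorylates FoxO proteins, was at 4.30, 5.69 and 3.88 CPM in PRMK and at 5.01, 50.2 and 73.8 CPM in PRM, so PRM library 4 lay with PRMK. Igf1r, the IGF1 receptor, had a log2 fold change of -1.84 (unadjusted p = 0.0165, edgeR). Of 16 FOXM1 target genes, 4 were above 0 and 12 below (median -0.17), with 3 lower at an unadjusted p under 0.05 and 0 passing adjustment. These were Skp2, a ubiquitin ligase subunit, and the mitotic kinases Aurka and Aurkb (log2 fold changes -1.0, -0.91 and -0.45).

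Partners and targets of Sox factors gave small numbers. Of 7 tested POU partner genes, 4 were above 0 and 3 below, and of 7 tested Wnt nuclear genes also 4 and 3, with 0 passing in either list. Of 6 tested SOX9 cartilage targets, 5 were above 0 (median 0.77), led by the collagen gene Col9a2 (log2 fold change 2.55, unadjusted p = 0.00873, edgeR), and of 4 SOX10 glial targets 2 were above 0. Sox9 and Sox10 themselves are not in the 40 genes of this table. Of 11 tested ciliary genes tied to FOXJ1, a list that shares its axonemal members with the multiciliated cell markers, 6 were above 0 and 5 below (median 0.87), and 3 were higher at an unadjusted p under 0.05. These were the ciliary regulator Rfx2 (30.8, 25.6 and 29.3 CPM in PRMK and 13.3, 8.29 and 13.6 CPM in PRM; log2 fold change 1.28, unadjusted p = 0.0058, edgeR) and the dynein genes Dnah5 and Dnah9, both under 4 CPM. The summed multiciliated markers overlapped, at 24.7 to 38.2 CPM in PRMK and 17.2 to 38.4 CPM in PRM.

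The comparison of sgMeis2 with sgScramble asks what a guide against Meis2, a homeobox partner of Hox factors, does within PRMK cells. Of 62 members 33 passed the filter, 17 had counts but did not pass, and 12 had none. Meis2 itself stood at 219, 224 and 136 CPM in sgMeis2 and at 258, 227 and 233 CPM in sgScramble (log2 fold change -0.31, edgeR adjusted p = 0.754). By edgeR 0 members and 0 of 16260 genes passed an adjusted p of 0.05 (0%), with lowest adjusted p values of 0.754 and 0.677. At an unadjusted p under 0.05, 0 members were higher (2.2% of all genes) and 1 was lower (2.48%), and DESeq2 called 0 members (0.0203% of its genes higher, 0.129% lower). The groups did not overlap for 0 members that were higher (8.12% of all genes) and for 5 that were lower (15.2% of those tested, against 7.93% of all genes): Foxj1, Foxn2, Foxn3, Sox1 and Sox13. Forkheads stood 7 above 0 and 14 below, and Sox genes 7 above and 5 below, which makes 14 of 33 members above 0 (42.4%, against 50.8% of all genes). The SD of log2 CPM was larger in sgScramble than in sgMeis2 for 11 of 33 members (33.3%, against 24.8% of all genes). The median was -0.02 over members and 0.004 over all genes.

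The members without overlap differed by little. Foxn3 was at 66.73, 68.29 and 59.83 CPM in sgMeis2 and at 79.36, 72.66 and 71.93 CPM in sgScramble (log2 fold change -0.20, SE 0.08, unadjusted p = 0.0492, adjusted p = 0.754, edgeR). Foxj1 was at 1.369, 1.736 and 1.446 CPM in sgMeis2 and at 2.435, 2.131 and 1.856 CPM in sgScramble (log2 fold change -0.49, SE 0.21, edgeR). Sox13 was at 17.54, 18.18 and 21.96 CPM in sgMeis2 and at 22.06, 23.21 and 22.23 CPM in sgScramble, where the third sgMeis2 library nearly reached the scrambled ones. Sox1 was at 247, 252.5 and 241.5 CPM against 263.6, 264.6 and 256.8 CPM, so the gap between the groups was narrower than the range within either (log2 fold change -0.08). Foxn2 was at 38.5, 40.56 and 38.94 CPM in sgMeis2 and at 45.91, 41.68 and 41.7 CPM in sgScramble.

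The third sgMeis2 library set the values of several members. Foxp1 was at 276.7, 273.4 and 157.5 CPM in sgMeis2 and at 334.4, 289 and 274 CPM in sgScramble, and Foxa1 at 93.49, 94.65 and 51.15 CPM and at 102.8, 95.96 and 91.69 CPM. In both, that library was the lowest of the 6. Sox21 was at 94.49, 94.37 and 164.1 CPM in sgMeis2 and at 119.3, 105.3 and 104.5 CPM in sgScramble, where it was the highest; its log2 fold change of 0.10 became -0.22 without it. Counts of this library differed from those of the other 5 by a chi-square of 107 to 119 per degree of freedom, against 2.04 to 8.15 among the others. Without it edgeR called 46 genes and 0 members, and 6 members had an unadjusted p under 0.05: Foxn3, Foxo3, Sox7, Sox13 and Sox21 lower and Sox2 higher. The share of all genes at that threshold in this refit is not given here, so these 6 are no result about the families. Over all 6 libraries, 14 of 16 FOXM1 targets were above 0 (median 0.13), against 50.8% of all genes. Of 17 FOXO targets 12 were below 0 (median -0.08), and 0 genes passed in any list. The FOXM1 targets summed to 3615, 3556 and 4199 CPM in sgMeis2 and to 3163, 3517 and 3632 CPM in sgScramble. Only the third sgMeis2 library thus lay above the scrambled range, and its part in the FOXM1 median was not tested. The summed FOXO targets were lower in every sgMeis2 library than in any sgScramble library.

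Chromatin marks at the members were read from the authors' peak lists as presence of a peak, and as covered length, over the gene and 10 kb on either side. With 2 libraries a group there is no test. The lists differ in length: H3K4me1 peaks covered 124.72 and 111.37 Mb in lung PRM and 147.52 and 77.42 Mb in lung PRMK. A member was said to gain a mark in PRMK where both PRMK libraries and no PRM library had a peak there, and to lose it in the reverse case. In H3K4me1, 5 members gained peaks in PRMK (8.06%, against 7.42% of all genes): Foxc1, Foxk2, Foxn1, Sox15 and Sox17. Of these 5, Foxn1 alone was also among those gaining when only the upper part of each list by signal was used, and Foxc1 and Sox15 were not among them over gene bodies. Foxr2 alone lost them (1.61%, against 3.23% of all genes). In H3K4me2, Foxd4 gained (1.61%, against 1.75%) and 0 members lost (0.247% of all genes). In H3K4me3, 0 members gained (0.302% of all genes) or lost (0.905%). These shares lay near or below those of all genes. Among the members, the pairs Foxd2 with Foxe3 and Foxc2 with Foxl1 lie close enough to share peaks. Whether a peak in a window belongs to a gene outside the families was not tested.

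Covered length was compared as well. A member counted as wider or narrower where every library of 1 group covered at least 2 times the length of every library of the other, with at least 2 kb in the wider ones; this rule was added after the peak lists were seen. Members and shares here cover only genes with at least 2 kb in at least 1 library of the comparison. These were 11862 genes in H3K4me1, 16017 in H3K4me2 and 14798 in H3K4me3. In H3K4me1, 2 of 36 members were wider in PRMK (Foxn1 and Sox13, 5.56% against 10.2% of these genes). Narrower were 3 (Foxh1, Foxr2 and Sox6, 8.33% against 9.64%). In H3K4me2, 3 of 48 were wider (Foxd4, Foxn1 and Sox21, 6.25% against 4.28%) and 0 narrower (0.531%). In H3K4me3, 1 of 46 was wider (Foxb2, 2.17% against 0.757%) and 2 narrower (Foxn4 and Sox2, 4.35% against 1.13%). The H3K4me1 shares lay below those of all such genes. In H3K4me2 and H3K4me3, each share above that of all such genes rests on 3 members or fewer.

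**Figure D3:**
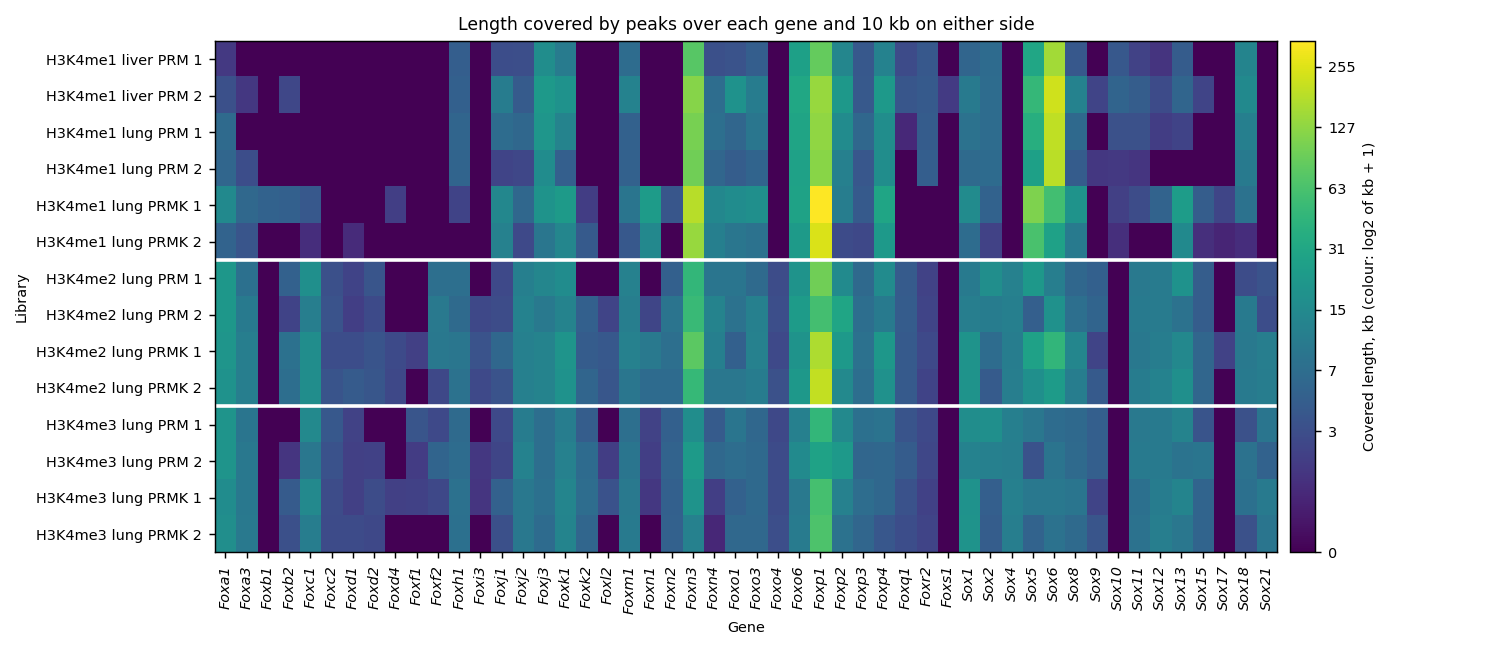
Length covered by peaks over the members and 10 kb on either side, in kb, by library, for H3K4me1, H3K4me2 and H3K4me3, with colour on a log2 scale of kb plus 1. Long genes such as Foxp1, Foxn3, Sox5 and Sox6 hold most of the H3K4me1 length, and Sox6 is the one of these 4 with less in PRMK than in PRM.

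The group D genes Sox5 and Sox6 differed in opposite directions in H3K4me1. At Sox6 (chr7:115470872-116040776, GRCm38.p6), peaks covered 197 and 185 kb in lung PRM and 57.1 and 27.1 kb in lung PRMK. Liver PRM, at 152 and 223 kb, was like lung PRM, so all 4 PRM libraries lay above both PRMK libraries. Base by base, 176 kb of Sox6 were covered in both lung PRM libraries, 25.0 kb in both PRMK libraries and 23.5 kb in all 4. A stretch of 124 kb in sum was covered in both PRM libraries and in neither PRMK library, and 0 kb the other way round. Over the whole genome these sums were 32.4 Mb and 22.0 Mb. In the first 150 kb of the gene, a span chosen after the values were seen, 27.9 kb were covered in both PRM libraries and 0 kb in both PRMK libraries. The other marks did not follow: H3K4me2 covered 11.2 and 18.3 kb in PRM and 46.1 and 23.5 kb in PRMK, and H3K4me3 covered 6.92 and 8.38 kb against 9.34 and 8.06 kb. At start site 2, whose sequence is given above, all 4 lung libraries had an H3K4me3 peak within 1 kb, while H3K4me1 was there in both lung PRM and both liver PRM libraries and in neither PRMK library. Sox6 RNA, with 345.2 CPM in 1 PRM library and 0.801 CPM in another, did not separate the groups.

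At Sox5 (chr6:143828425-144782287), H3K4me1 covered 37.7 and 26.9 kb in lung PRM, 30.7 and 47.7 kb in liver PRM, and 110 and 63.3 kb in lung PRMK. Both PRMK libraries were above the 4 PRM libraries, though short of the 2-fold rule, and 39.2 kb were covered in both PRMK libraries and in neither lung PRM library against 1.03 kb the other way. Its printed start site, chr6:143947106, lies inside the gene, whose 5′ end on the - strand is at 144782287. This site is poor in CpG and had H3K4me1 within 1 kb in all 6 libraries and H3K4me3 in none of the 4 lung libraries. Over the whole window, H3K4me3 covered 9.05 and 3.4 kb in lung PRM and 9.29 and 5.45 kb in PRMK. Sox13 (chr1:133382300-133424459) had 2.27 and 0 kb of H3K4me1 in lung PRM, 4.47 and 5.66 kb in liver PRM, and 24.4 and 15 kb in PRMK. Its RNA was higher in all 3 PRMK libraries, as given above, without passing the test.

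Foxp1 (chr6:98925342-99522746) and Foxn3 (chr12:99190081-99563667) held the longest H3K4me1 coverage of the forkheads. Over Foxp1 it was 130 and 121 kb in lung PRM, 85 and 138 kb in liver PRM, and 343 and 248 kb in PRMK. PRMK was above every PRM library, and 128 kb were covered in both PRMK libraries and in neither lung PRM library, against 4.72 kb the other way. H3K4me2 over Foxp1 was 96 and 58.9 kb in PRM and 168 and 201 kb in PRMK, and H3K4me3 was 47.2 and 27.9 kb and 60.8 and 65.6 kb, so all 3 marks were longer in both PRMK libraries. Start site 2, poor in CpG, lay under H3K4me1 peaks in all 6 libraries, the widest of them 5.59 to 6.58 kb in PRM of lung and liver and 21.5 and 11.3 kb in PRMK. The CpG-rich start site 3 had H3K4me3 in all 4 lung libraries and H3K4me1 only in PRMK library 1. Over Foxn3, H3K4me1 covered 103 and 96.1 kb in lung PRM, 74.4 and 117 kb in liver PRM, and 183 and 139 kb in PRMK, with 43.6 kb found in both PRMK and neither lung PRM library. Foxp1 and Foxn3 RNA were also higher in all 3 PRMK libraries.

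**Figure D4:**
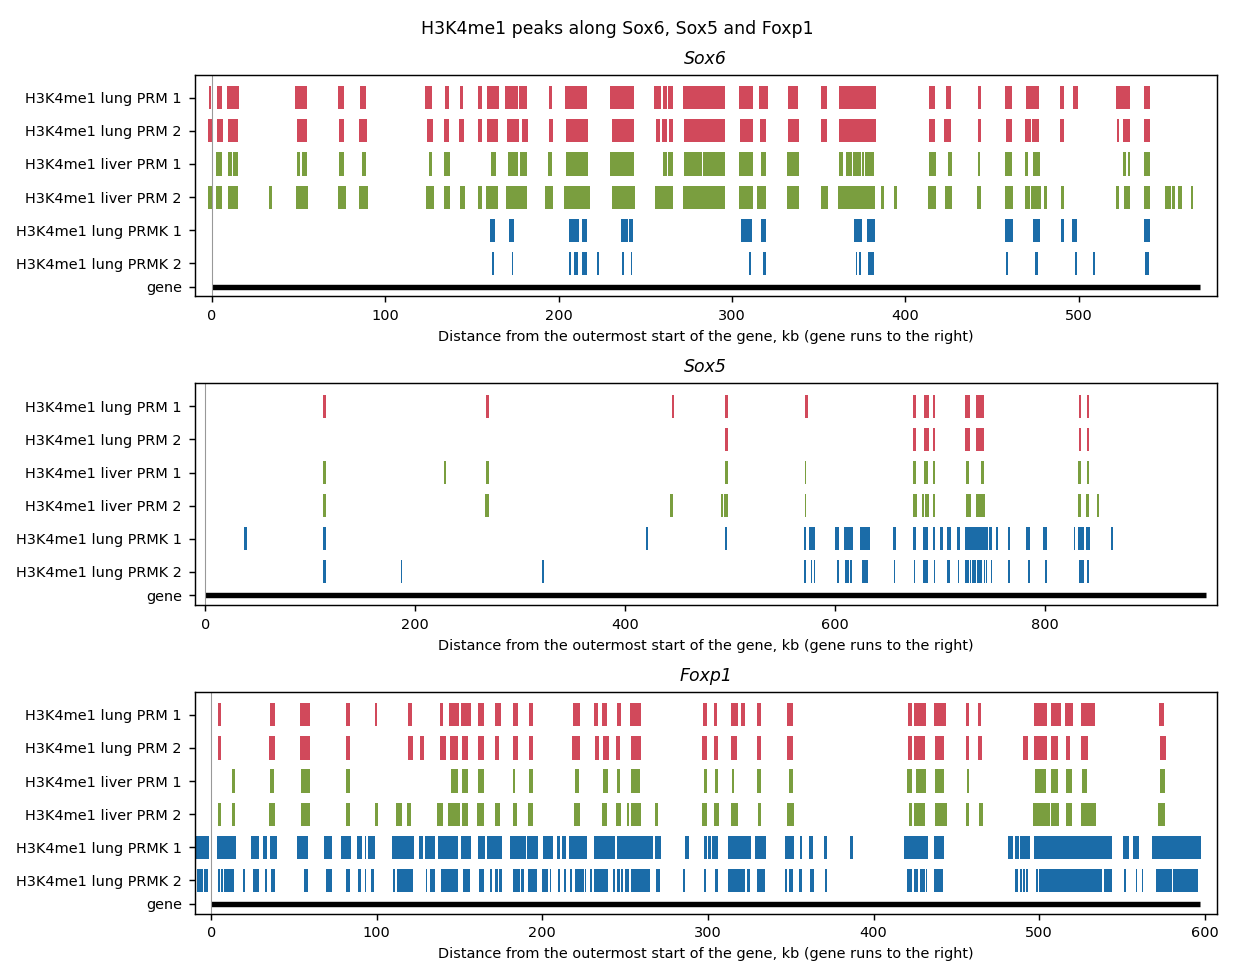
H3K4me1 peaks over Sox6, Sox5 and Foxp1 by library, as distance in kb from the 5′ end of each gene. The row of Sox6 is nearly empty in the 2 PRMK libraries where both PRM tissues carry peaks, and the rows of Sox5 and Foxp1 are fuller in PRMK than in PRM.

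Foxn1, the factor of thymic epithelium and hair follicles, lies on chr11:78357577-78386783 and had no H3K4me1 peak in any PRM library of lung or liver. In PRMK it had 23.4 and 14.4 kb. H3K4me2 there was 0 and 2.36 kb in PRM and 9.58 and 6.75 kb in PRMK, and H3K4me3 was 2.18, 1.94, 1.55 and 0 kb over the same 4 libraries. Foxn1 is not among the 40 members of the PRMK and PRM count table and was at 0.091 CPM or less in the other table. Smaller H3K4me1 differences were seen at Foxj1 (6.87 and 2.34 kb in lung PRM, 13.8 and 11.9 kb in PRMK) and at Sox8 (6.36 and 4.52 kb, 19.2 and 10.2 kb). Liver PRM had 3.01 and 10.7 kb at Foxj1 and 4.03 and 12.3 kb at Sox8, so at Sox8 liver PRM overlapped PRMK. Foxr2, an X-linked forkhead, had 4.47 and 4.72 kb of H3K4me1 in lung PRM, 3.95 and 4.22 kb in liver PRM and none in PRMK. H3K4me3 over its window was 2.64, 2.50, 2.12 and 2.29 kb in the 4 lung libraries. None of these peaks lay within 1 kb of its listed start site.

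The longest summed H3K4me3 coverage in lung PRM belonged to Foxp1 (mean 37.6 kb, at the 99.9 percentile of all genes), Foxn3 (16.7 and 23.3 kb in the 2 libraries), Foxa1 (19.6 kb), Foxp2 (18.5 kb) and Sox2 (14.6 kb, at the 97.6 percentile). This sum is not scaled to gene length, and Foxp1, Foxp2 and Foxn3 are 597.4, 540.6 and 373.6 kb long. The widest single peak in the 2 lung PRM libraries was 14.1 and 6.57 kb at Foxp1 and 8.65 and 7.11 kb at Foxp2. It was 4.48 and 3.77 kb at Foxn3, against 19.7 and 19.5 kb at Foxa1. Sox2 was the one of the 5 members that met the 2-fold rule for narrower H3K4me3 in PRMK. Sox2 (chr3:34649995-34652461) lay under H3K4me3 covering 17.5 and 11.7 kb of the window in PRM and 4.85 and 4.65 kb in PRMK. Relative to the start, the peak over it ran from -2.494 kb to 18.922 kb in PRM library 1 and from -2.704 kb to 8.972 kb in PRM library 2. In PRMK it ended 2.112 and 3.145 kb downstream. H3K4me2 followed, with 16.8 and 10.5 kb in PRM and 6.81 and 4.41 kb in PRMK. In sum, 5.83 kb of H3K4me3 were covered in both PRM libraries and in neither PRMK library, and 0 kb the other way. H3K4me1 within 1 kb of the start was found in both PRMK libraries and in no PRM library of lung or liver. Over the whole window, H3K4me1 ran the other way, with 6.95 and 6.62 kb in lung PRM, 6.74 and 6.96 kb in liver PRM, and 5.21 and 2.2 kb in PRMK. Of this, 3.1 kb were covered in both lung PRM libraries and in neither PRMK library, and 1.13 kb the other way. In the upper part of the lists by signal, Sox2 was among the members losing H3K4me1. Sox2 RNA did not separate the groups.

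Sox1 and Sox21 differed the other way in H3K4me2, while the group B genes Sox3 and Sox14 had none in any of the 4 lung libraries. Sox21 (chr14:118233233-118237030) had 3.49 and 2.97 kb in PRM and 11.3 and 10.9 kb in PRMK, where 1 peak ran from -2.993 to 8.269 kb around the start in library 1 and from -3.016 to 7.862 kb in library 2. H3K4me3 over Sox21 was 8.76 and 5.32 kb in PRM and 9.84 and 8.78 kb in PRMK. Sox1 (chr8:12395519-12399555) had 10.2 and 11.1 kb of H3K4me2 in PRM, in separate peaks, and 19 and 18.9 kb in PRMK, each library with 1 peak that ran unbroken across the start. Its H3K4me3 was 16.7 and 12.4 kb in PRM and 18.6 and 19 kb in PRMK. In each of these PRMK pairs the library with the Meis2 guide and the one with the scrambled guide were alike.

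**Figure D5:**
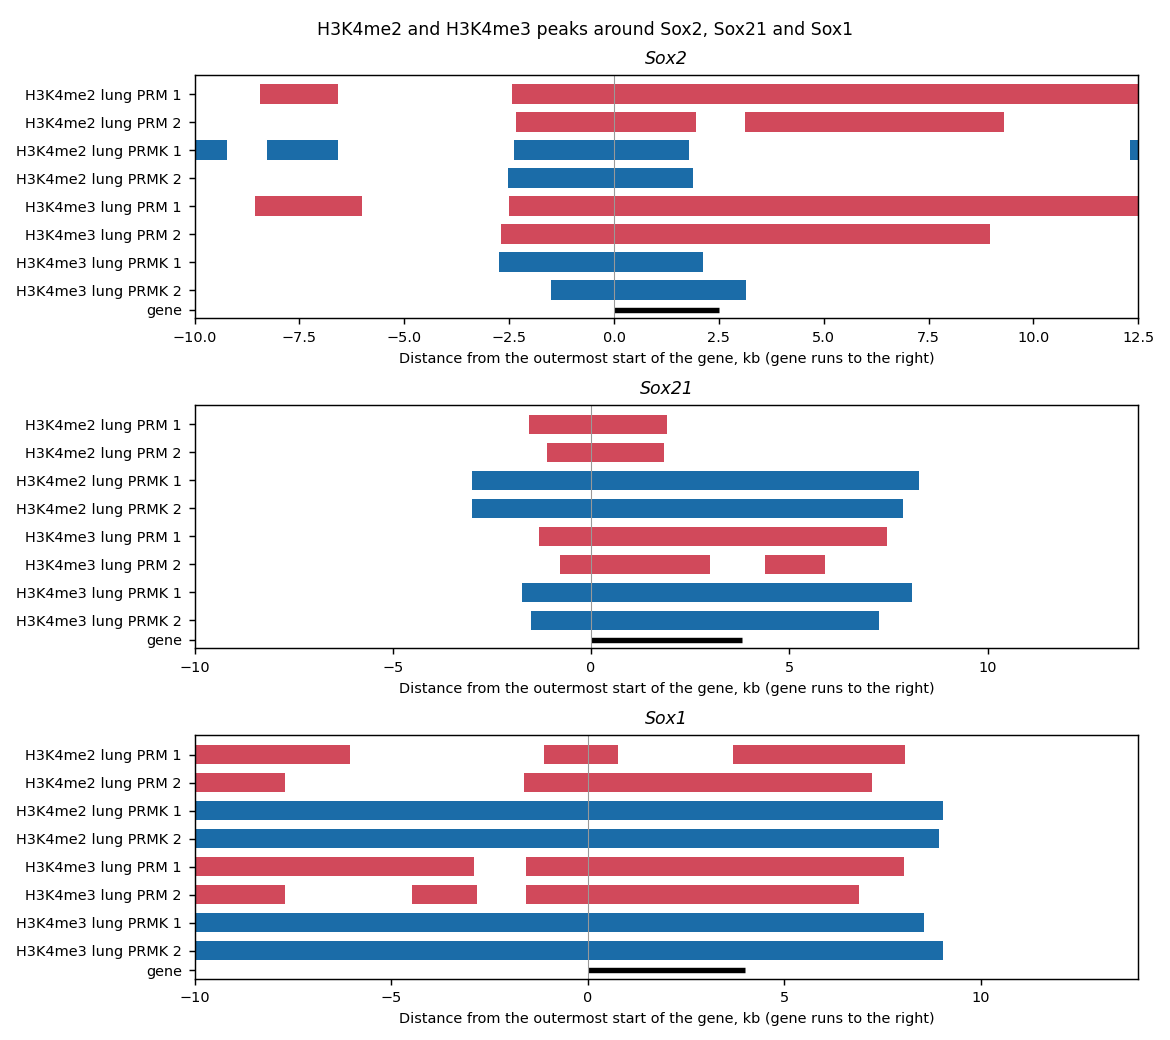
H3K4me2 and H3K4me3 peaks around the starts of Sox1, Sox2 and Sox21 by lung library, as distance in kb from the start, clipped 10 kb beyond each gene. H3K4me3 peaks at Sox2 end 2.112 and 3.145 kb downstream in PRMK, while in PRM library 1 the peak runs past the edge of the window and in library 2 it ends at 8.972 kb, and those at Sox1 and Sox21 for H3K4me2 are longer in PRMK.

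Across the 48 start sites, the presence of H3K4me3 followed CpG content. The 23 sites with an H3K4me3 peak within 1 kb in every lung library held a median of 27 CpG in the 300-base window (11 to 59), the 8 with a peak in some libraries 19, and the 17 with none 6 (2 to 28). The 3 sites with H3K4me1 in every lung library held 3 to 5 CpG. Start sites of 1 gene share its window, so these are not independent.

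KMT2C peaks were far more numerous in PRMK, with 187682 and 134561 peaks against 9949 and 16681 in lung PRM. Members followed this difference in list length: 20 of 62 gained a peak in PRMK (32.3%, against 33.0% of all genes) and 0 lost one (0.0228% of all genes). Over Foxp1 there were 2 and 3 peaks in lung PRM and 188 and 163 in PRMK, and over Sox6, where H3K4me1 was shorter in PRMK, 0 and 1 in PRM and 32 and 22 in PRMK. The antibody signal is listed at more places in the cells that carry the Kmt2c guide, and whether it reports KMT2C protein there was not tested. Liver PRM against lung PRM gave 13 members gaining a KMT2C peak (21.0%, against 21.9% of all genes) and 0 losing one (0.0457%). For H3K4me1, 0 members gained (1.46% of all genes) and 0 lost (0.251%) in liver PRM. Of 33 members with at least 2 kb in at least 1 of these libraries, 1 was at least 2-fold wider in liver. The share was 1.5% of the 10618 such genes, and 0 members were narrower (0.405%). The wider member was Foxq1, with 2.77 and 3.77 kb in liver and 0.969 and 0 kb in lung. ATAC peaks covered 42 and 31 members in lung PRM and 1 and 39 in lung PRMK, the first of which listed only 593 peaks. The liver ATAC lists, of 345 and 141 peaks, covered 0 members, so open chromatin was not compared.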

How the data were processed

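RNA-seq, CUT&Tag and ATAC-seq libraries of mouse lung cancer organoids were analysed. Raw counts per gene were deposited by the authors, whose reads were aligned with STAR 2.6.0a to GRCm38, per the submitters' processing notes; the counter is not given in these sources. Columns named tpm in the same deposited tables do not have the sum that TPM has and were treated as a score that only supplied relative gene lengths. Deposited CUT&Tag peak lists give a total signal per peak and were called per library, with Bowtie2 and SEACR named in the submitters' processing notes. Deposited ATAC lists give a score per peak, with Bowtie2 2.2.1 named and the peak caller not given in these sources. Both were used as positions on mm10, and total signal only to rank peaks.

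Counts were fitted over whole tables with edgeR 4.0.16 in R 4.3.3 (TMM scaling, filterByExpr, quasi-likelihood test, no covariates, Benjamini-Hochberg adjustment, threshold 0.05) and DESeq2 1.42.0 as an alternative. The SE of a log2 fold change is its absolute value divided by the square root of edgeR's quasi-likelihood F statistic. CPM values are scaled by the TMM library sizes. Levels per length were computed as TPM where RPKM had been planned. Peaks were counted in Python 3.11.15, needing 1 bp of overlap. The steps were tested on simulated data. The members and gene lists were chosen with earlier results of these data known. Named were members with an adjusted, then unadjusted, p under 0.05, the 10 highest by TPM, members with counts in all libraries of 1 group only, members gaining or losing peaks and the 5 with the widest H3K4me3; other members were named within their class, those with a fold change but outside these criteria having been chosen after their values were seen. Of other lists, at most 3 genes were named, by p. Alternatives were RLE scaling, no low-count filter, DESeq2, a replicate block, each library left out, gene bodies only, 200 bp of overlap and the upper part of each peak list by signal. Bisulfite, single-cell, S-adenosylmethionine and IgG samples were not used here. Values of 1 member and of 1 marker gene are not reported here.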

Additional observations from a re-analysis of the deposited data

How the results depend on the processing

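The precision is limited by 3 libraries per RNA group and 2 per peak group, and for members under 1 CPM by depth. The 0 members called for PRMK against PRM by edgeR became 4 with DESeq2, and 0 to 3 when 1 library was left out; RLE scaling and no low-count filter gave 0. For sgMeis2 against sgScramble, 0 members were called under every setting run. The fit with the replicate number as a block gave 0 members and 0 genes. Deviations of same-numbered libraries had correlations of 0.013, -0.001 and 0.033, against -0.045 to 0.04 for differently numbered ones. With 3 libraries a group, these values cannot tell whether libraries were paired. No paired analysis was possible because PRMK and PRM libraries share fewer than 2 replicate numbers, and peak counts come from no test. Of 234 refits of 25 log2 fold changes, 7 turned sign, over 5 genes, and the cause was not tested: Sox6 to 2.17 without PRM library 4, Sox11 to 0.092, Foxa1 to -0.028 and Foxp2 to 2.75 without PRM library 5, Foxa1 to -0.26 without PRM library 6, Foxp2 to 0.14 without PRMK library 3, and Sox21 to -0.22 without sgMeis2 library 3. With 1 library left out, these log2 fold changes ranged from -3.03 to 2.17 (Sox6), -1.07 to 0.092 (Sox11), -0.26 to 1.12 (Foxa1), -0.72 to 2.75 (Foxp2) and, for sgMeis2, -0.22 to 0.24 (Sox21). Of 84 settings for peak counts 65 stayed within 1.5 times, which does not make the members the same: in the upper part of the lists those gaining H3K4me1 were Foxa3, Foxn1, Foxo1, Foxo3, Sox10 and Sox13, and those gaining H3K4me2 were Foxb2, Foxj1 and Foxn1, without Foxd4. In lung PRMK against lung PRM, the 1 member losing H3K4me1 became 2 over gene bodies and 3 in the upper part of the lists, the 1 gaining H3K4me2 became 3 there, and the 0 losing H3K4me3 became 3 there; for liver, the 0 gaining H3K4me1 became 3 there. With 1 library left out, counts in lung ranged from 6 to 9 (H3K4me1 gained), 1 to 3 (H3K4me1 lost), 1 to 6 (H3K4me2 gained), 0 to 3 (H3K4me3 gained), 0 to 3 (H3K4me3 lost) and 21 to 32 (KMT2C gained), and in liver from 0 to 4 (H3K4me1 gained) and 14 to 25 (KMT2C gained). Leaving out a library relaxes the rule for gain and loss, so these counts could only stay or rise, for members and for all genes alike. Shares over all genes with a library left out, over gene bodies and in the upper part of the lists are not given here. The counts under these settings are therefore no result about the families.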

Other observations

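Sox9, a factor of cartilage and of distal lung buds, was at 2.344, 1.231 and 0.949 CPM in sgScramble and is not among the 40 members of the PRMK and PRM table. Over the sgScramble libraries, Foxo6 was at 13.51, 12.36 and 12.87 CPM and Sox5 at 27.76, 26.95 and 24.71 CPM. The immune markers summed to 0.184 to 0.579 CPM over the 6 libraries of the sgMeis2 table.

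Foxo6 kept a similar H3K4me1 length in every library (29.5 and 27.4 kb in lung PRM, 27.9 and 22.9 kb in lung PRMK, 26.4 and 31.1 kb in liver PRM), with 20.9 kb covered in all 4 lung libraries. Its RNA ran from 3.529 to 31.34 CPM within PRM.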
